A study of Homo sapiens with 9 samples.

Results

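The genes described here encode the kinetochore, the protein assembly that couples each chromosome to spindle microtubules, and the spindle checkpoint that it hosts. The set was a list of 36 gene symbols, each matched to the Ensembl identifier of the count table. The rule used no measured value, although the list was drawn up with earlier results of these libraries known. All 36 were found among the 57905 genes of the table, and all 36 were among the 13252 genes that passed the filter on low counts. RNA was sequenced from KYSE180, an established line of human esophageal squamous cell carcinoma that the series title calls KDM6A-deficient (KDM6A removes the histone mark that EZH2 writes). The 9 libraries form 3 groups of 3, all from cells exposed to 6 Gy of ionizing radiation. The control cells carried a hairpin against luciferase (shluc), and the other groups carried 1 of 2 hairpins against EZH2 (shEZH2#1 or shEZH2#3). A genotype label says knockout for the EZH2 groups, while the titles name hairpins; the groups follow the titles. No unirradiated cells were analysed here, and no label tells whether replicates are separate cultures. The p-values therefore reflect the spread among the libraries of a group, which may be technical only.

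The inner kinetochore is built on nucleosomes that carry the histone H3 variant CENPA and is held there by the constitutive centromere-associated network of CENP proteins. On it sits the outer kinetochore, in which the KNL1, MIS12 and NDC80 complexes bind microtubules, the SKA complex strengthens that grip, and the fibrous corona and the RZZ complex assemble on kinetochores that are not yet attached. Checkpoint proteins gather at unattached kinetochores and hold back the anaphase-promoting complex, and most of these genes are known to be transcribed mainly in the late phases of the cell cycle, through promoter elements that include the cell cycle genes homology region (CHR) and CCAAT boxes.

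Promoter sequence was taken from RefSeq (GRCh38.p14), as the 250 bases before the annotated start, and was found for 29 of the 36 genes. CENPH, CENPM, CENPL, KNL1, KNTC1, BUB3 and TTK had no entry in that table. The 4 promoters below were chosen after the expression values were seen: BUB1 was called lower with both hairpins, BUB1B holds CHR letters near its start, and SPC25 and SPC24 encode partner subunits with different readings. Capitals mark the letters searched, on either strand. BUB1 (chr2:110678064-110678313), SPC25 (chr2:168890431-168890680) and SPC24 (chr19:11155783-11156032) lie on the minus strand and BUB1B (chr15:40160819-40161068) on the plus strand, and each sequence is printed 5′ to 3′ on the strand of its gene.
BUB1: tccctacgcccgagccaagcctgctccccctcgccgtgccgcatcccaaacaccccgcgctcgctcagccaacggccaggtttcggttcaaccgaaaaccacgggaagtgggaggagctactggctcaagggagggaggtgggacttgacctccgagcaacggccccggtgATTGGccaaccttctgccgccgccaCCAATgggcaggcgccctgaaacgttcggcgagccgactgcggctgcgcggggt
BUB1B: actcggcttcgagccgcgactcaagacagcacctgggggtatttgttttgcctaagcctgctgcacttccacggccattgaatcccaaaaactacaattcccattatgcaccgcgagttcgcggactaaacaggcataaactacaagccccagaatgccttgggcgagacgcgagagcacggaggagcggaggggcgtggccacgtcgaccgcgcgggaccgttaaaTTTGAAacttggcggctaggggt
SPC25: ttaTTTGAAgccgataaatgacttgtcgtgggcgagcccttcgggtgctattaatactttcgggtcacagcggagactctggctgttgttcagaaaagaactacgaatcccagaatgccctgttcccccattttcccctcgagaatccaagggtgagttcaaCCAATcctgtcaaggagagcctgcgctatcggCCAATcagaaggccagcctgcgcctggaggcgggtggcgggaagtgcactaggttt
SPC24: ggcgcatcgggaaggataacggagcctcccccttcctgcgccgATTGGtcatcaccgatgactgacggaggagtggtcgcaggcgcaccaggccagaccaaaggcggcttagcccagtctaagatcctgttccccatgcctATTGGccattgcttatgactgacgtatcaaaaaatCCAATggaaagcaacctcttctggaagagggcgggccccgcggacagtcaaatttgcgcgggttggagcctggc
BUB1B holds TTTGAA 18 to 23 bases before its start, and SPC25 holds it 242 to 247 bases before its start. BUB1, SPC25 and SPC24 hold CCAAT, read on one strand or the other, and the BUB1 and SPC24 windows hold no CHR letters.

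Among the 29 promoters, the CHR letters TTTGAA or TTCGAA were in 6 (CENPA, CENPC, SPC25, ZWINT, ZW10 and BUB1B), against 9.36% of the 9971 promoters of tested genes and 14.6% of all 27305 promoters in the table. CCAAT was in 17 of 29, against 35.2% of tested genes and 33% of all promoters. E2F letters (TTTCCCGC, TTTGGCGC, TTTCGCGC or TTTGCCGC) were in 3 (CENPA, CENPU and MIS12), against 4.52% and 2.79%. All motif searches used both strands, and the letters of different motifs did not need to be apart. Of the 14 members with a promoter that were called lower with shEZH2#3, 4 held CHR letters, 7 held CCAAT and 1 held E2F letters. Of the 15 that were not called, the counts were 2, 10 and 2. These matches describe letters in a window and carry no test.

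Library totals were 14958011 to 21152006 estimated counts. EZH2 itself, the check of the labels, fell from 19.3 ± 0.89 CPM (counts scaled to a common library total by TMM; SD, n = 3) in shluc to 10.1 ± 2.41 with shEZH2#1 and 9.94 ± 0.989 with shEZH2#3, with log2 fold changes of -0.94 ± 0.18 and -0.96 ± 0.18 (approximate SE; adjusted p = 0.00163 and 0.000433). Squamous markers were nearly absent although the label names a squamous carcinoma: KRT5, KRT14, KRT6A, TP63, SOX2 and DSG3 together reached 1.53 to 1.61 CPM in shluc, 0.785 to 1.39 with shEZH2#1 and 0.629 to 1.37 with shEZH2#3. Of the fibroblast list, COL1A2 was at 0 in every library, and the summed level was 58.9 to 68.1 CPM in shluc, 52.9 to 62.1 with shEZH2#1 and 79.5 to 117 with shEZH2#3. Endothelial CDH5 and VWF together reached 13.8 to 19.8, 7.97 to 8.29 and 28.4 to 32.7 CPM, in the same order, while PECAM1 was not matched to 1 identifier. The leukocyte list summed to 1.43 to 2.25, 2.29 to 3.16 and 4.43 to 5.63 CPM, with its defining markers PTPRC and CD3E at 0 in all libraries. The part of these markers in the results below was not tested. The libraries also differed in how level, taken relative to each gene's mean log2 CPM over the 9 libraries, tracked GC content. Across genes, the Spearman correlation of this deviation with GC content was -0.6918 to -0.3922 in shluc, -0.2474 to 0.2531 with shEZH2#1 and 0.3723 to 0.6388 with shEZH2#3. These values compare libraries with each other, and opposite signs between groups follow partly from the centring. A fit corrected for GC content and transcript length was therefore run beside the uncorrected one.

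With shEZH2#3, 20 of the 36 kinetochore and checkpoint genes fell and 0 rose, whereas with shEZH2#1 only BUB1 fell and 0 rose. All adjusted p-values are from edgeR's quasi-likelihood test with Benjamini-Hochberg adjustment over all genes tested, and a gene was called at a value below 0.05. The 20 genes are 55.6% of the set, against 19.8% of all tested genes called lower and 24.4% called higher with shEZH2#3. The 1 gene with shEZH2#1 is 2.78% of the set, against 7.89% of all tested genes called lower and 11.2% called higher. BUB1 was the member called lower with both hairpins, against 3.26% of tested genes. At an unadjusted p below 0.05 in the edgeR fit, 10 members were lower with shEZH2#1, beside 16% of all tested genes, among them CENPF of the corona, SKA3 of the SKA complex and no gene of the MIS12 and KNL1 complexes. With the GC and length correction 5 were lower at that limit (CENPA, CENPH, CENPO, NDC80 and BUB1), beside 16.9%. At the same unadjusted limit 2 members were higher with shEZH2#1 (CENPM and SPC24), beside 16.7% of all tested genes, and 2 with shEZH2#3 (CENPT and SPC24), beside 27.9%. With the correction these counts were 1 (SPC24), beside 13.9%, and 0, beside 18.1%. After Benjamini-Hochberg adjustment DESeq2 called 1 member higher with shEZH2#1, CENPM, beside 12.8% of all tested genes. It called 0 higher with shEZH2#3, for which the share over all genes is not given here. In bulk RNA, fewer cells in the phase that expresses these genes and less RNA per cell cannot be told apart.

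The median log2 fold change of the 36 genes was -0.73 with shEZH2#3, beside -0.01 over all tested genes, and -0.37 with shEZH2#1, beside -0.07. The fitted change was below 0 for 33 of 36 genes with shEZH2#3, beside 50.6% of all tested genes. With shEZH2#1 it was below 0 for 30 of 36, beside 55.7%. With the GC and length correction these counts were 29, beside 51.5%, and 26, beside 51.1%. More than 2-fold lower were 15 genes with shEZH2#3 and 0 with shEZH2#1, and the share of all tested genes past that limit is not given here. All 3 shEZH2#3 libraries lay below all 3 shluc libraries for 24 members, beside 26.0% of all tested genes, and all 3 shEZH2#1 libraries did so for 10 members, beside 18.9%. All 6 EZH2 hairpin libraries lay below all 3 shluc libraries for 10 members (CENPA, CENPH, CENPO, NDC80, SKA3, CENPF, BUB1, BUB1B, BUB3 and MAD2L1), beside 9.54%.

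**Figure D1:**
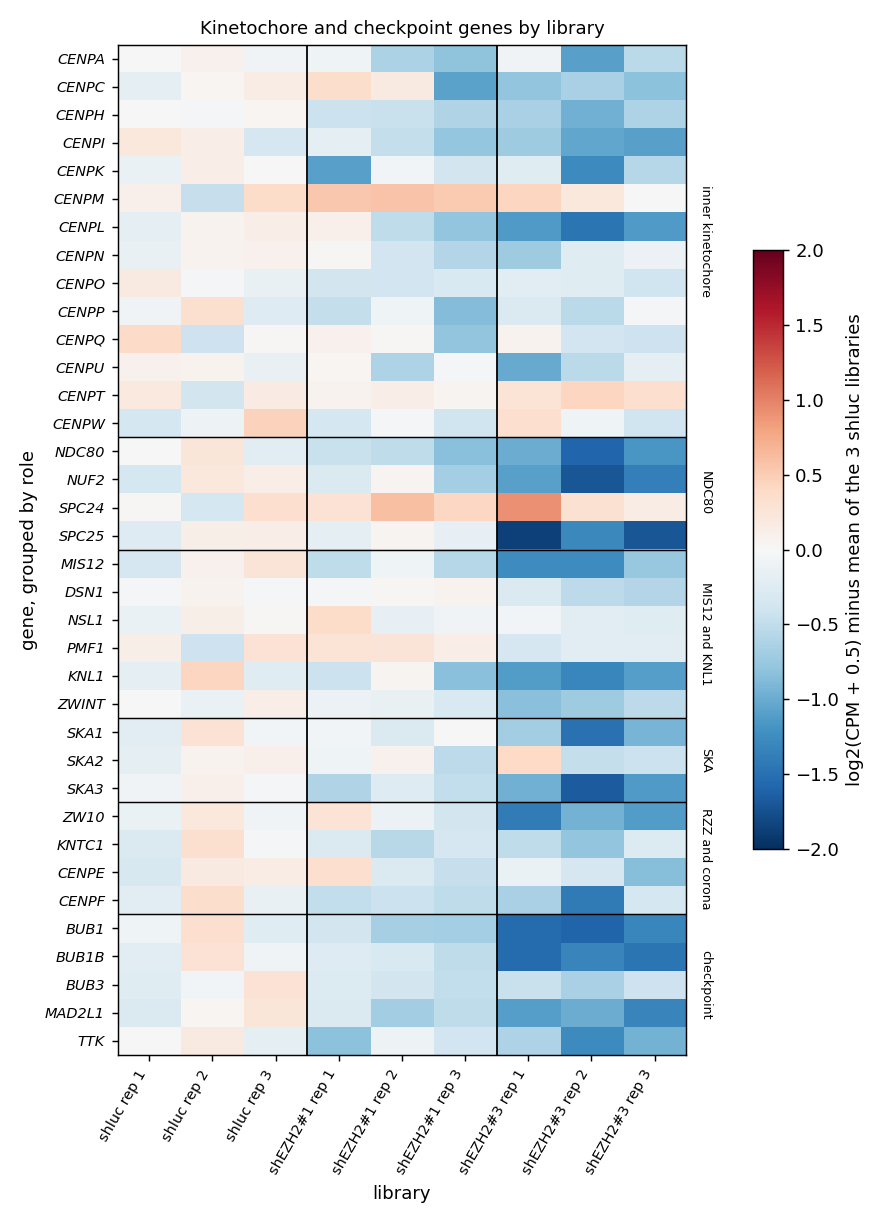
Level of each of the 36 genes in each of the 9 libraries, as log2(CPM + 0.5) minus the mean of the 3 shluc libraries (colour scale, blue lower and red higher), with genes grouped by role in rows and libraries in columns. The blue cells are concentrated in the 3 shEZH2#3 columns and in the NDC80, SKA and checkpoint rows, while SPC24, CENPM and CENPT are pale or red.

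**Figure D2:**
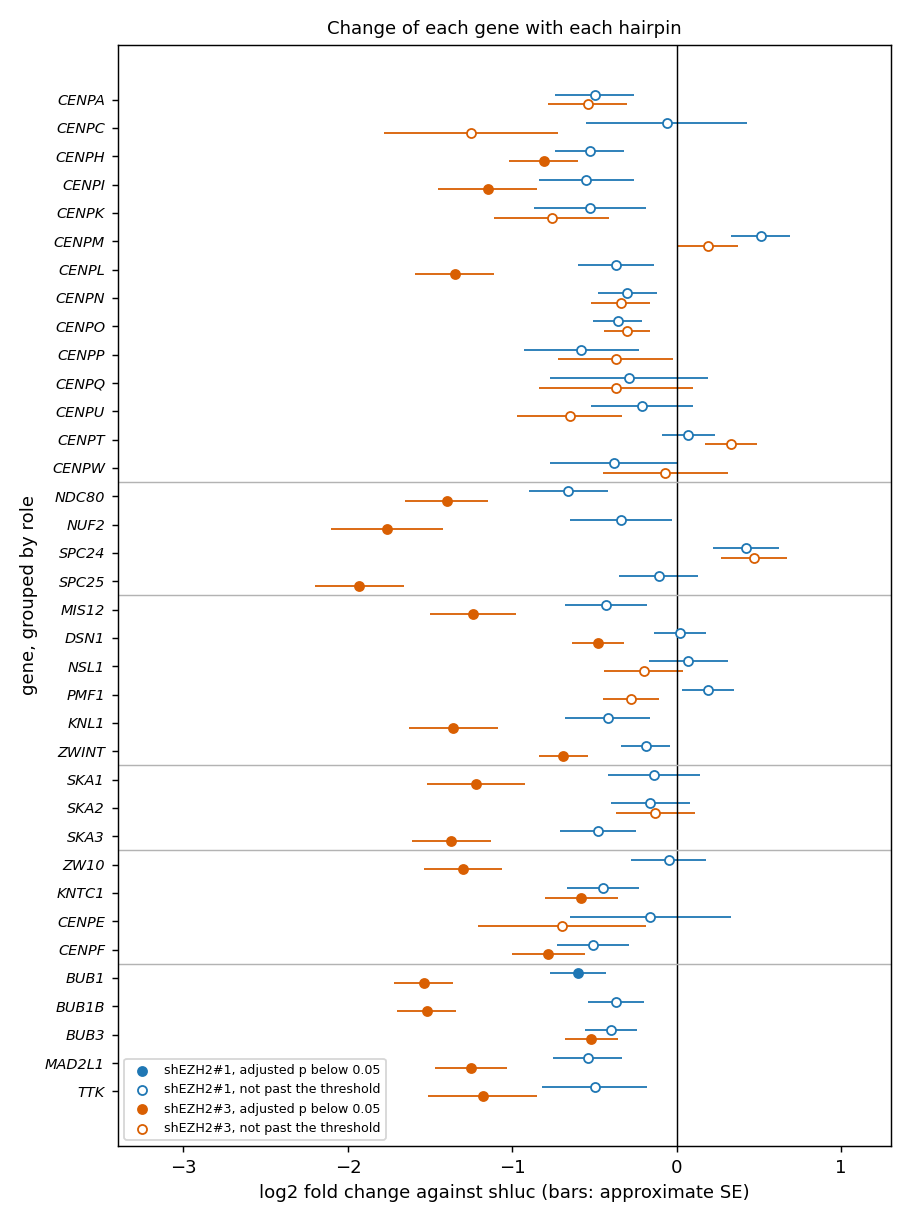
Log2 fold change of each gene against shluc with shEZH2#1 (blue) and shEZH2#3 (orange), with approximate standard errors as bars; filled points passed an adjusted p below 0.05. In shEZH2#3, 20 points are filled and all of them lie below 0, and in shEZH2#1 the single filled point is BUB1.

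Levels in shluc were compared between members per length, as CPM per kilobase of the longest annotated transcript. PMF1, a MIS12 complex subunit, stood highest at 125, followed by ZWINT at 81.7, CENPM at 40.3, CENPT at 25.5 and SPC24 at 14.9. The lowest were CENPC at 0.168 and CENPE at 0.118. The lowest count of any member in a library was 4. The summed level of the 36 genes was 737, 693 and 810 CPM in the shluc libraries, 732, 720 and 658 with shEZH2#1 and 577, 552 and 574 with shEZH2#3. The shEZH2#3 sums lay below all 6 others.

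The checkpoint was the role in which every member fell with shEZH2#3: 5 of 5, with a median log2 fold change of -1.25. With the correction for GC content and length, 3 of the 5 were called and the median was -0.61. BUB1, a kinase that marks centromeric histone H2A and recruits other checkpoint proteins (ENSG00000169679, chr2:110637698-110678114), stood at 29.8, 40.2 and 26.7 CPM in shluc, at 24.4, 19.9 and 19.7 with shEZH2#1 and at 10.6, 10.1 and 12.6 with shEZH2#3. The 3 groups did not overlap, and the order was shluc, shEZH2#1, shEZH2#3 from high to low. BUB1 changed by -1.54 ± 0.18 on the log2 scale in shEZH2#3 cells (adjusted p = 9.09e-06). In shEZH2#1 cells it changed by -0.60 ± 0.17 (adjusted p = 0.0219). The call with shEZH2#1 ended when shluc replicate 2 was left out (-0.42, adjusted p = 0.0938), without shEZH2#1 replicate 2 (-0.55, 0.101) or replicate 3 (-0.54, 0.105), and without shluc replicate 2 and shEZH2#3 replicate 1 together (-0.40, 0.0751). It also ended with the GC and length correction (-0.33, 0.0717).

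BUB1B, which encodes BUBR1, the subunit of the mitotic checkpoint complex that blocks the anaphase-promoting complex (ENSG00000156970, chr15:40161023-40221136), stood at 16.3, 23.6 and 18.3 CPM in shluc, 15.9, 15.5 and 13.4 with shEZH2#1 and 6.29, 7.36 and 6.68 with shEZH2#3. The shEZH2#3 libraries were below the lowest of the other 6. The change was -1.52 ± 0.18 in shEZH2#3 cells (adjusted p = 9.25e-06), and -0.37 ± 0.17 in shEZH2#1 cells was not called (adjusted p = 0.134). Part of its exon sequence is shared with the readthrough gene BUB1B-PAK6, whose counts came to 10.81% of those of BUB1B over the 9 libraries. MAD2L1, which encodes the MAD2 protein that captures CDC20 (ENSG00000164109, chr4:120055608-120067074), stood at 7, 8.93 and 10.3 CPM in shluc, 6.96, 5.13 and 5.95 with shEZH2#1 and 3.78, 4.12 and 3.15 with shEZH2#3. The 3 groups did not overlap, although the nearest shluc and shEZH2#1 libraries almost met. MAD2L1 changed by -1.25 ± 0.22 with shEZH2#3 (adjusted p = 0.000214), with -0.54 ± 0.21 for shEZH2#1 (adjusted p = 0.0762).

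TTK, the MPS1 kinase that starts checkpoint signalling, fell to 44.2% of the shluc level with shEZH2#3 (-1.18 ± 0.33, adjusted p = 0.00832), and was not called with the GC and length correction (-0.61, adjusted p = 0.173). BUB3, the partner that brings BUB1 and BUBR1 to KNL1, had the smallest change of the 5 at -0.52 ± 0.16 (adjusted p = 0.0132). That call ended on leaving out shluc replicate 3 (-0.36, adjusted p = 0.0712) or shEZH2#3 replicate 2 (-0.46, 0.0639), and with the correction BUB3 stood at 0.06 (adjusted p = 0.825). Neither TTK (-0.50, adjusted p = 0.293) nor BUB3 (-0.40, adjusted p = 0.0878) was called with shEZH2#1. The summed level of the 5 checkpoint genes was 92.3, 118 and 111 CPM in shluc, 84.3, 76.6 and 71.7 with shEZH2#1 and 53.9, 49.9 and 56 with shEZH2#3, with no overlap between groups.

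**Figure D3:**
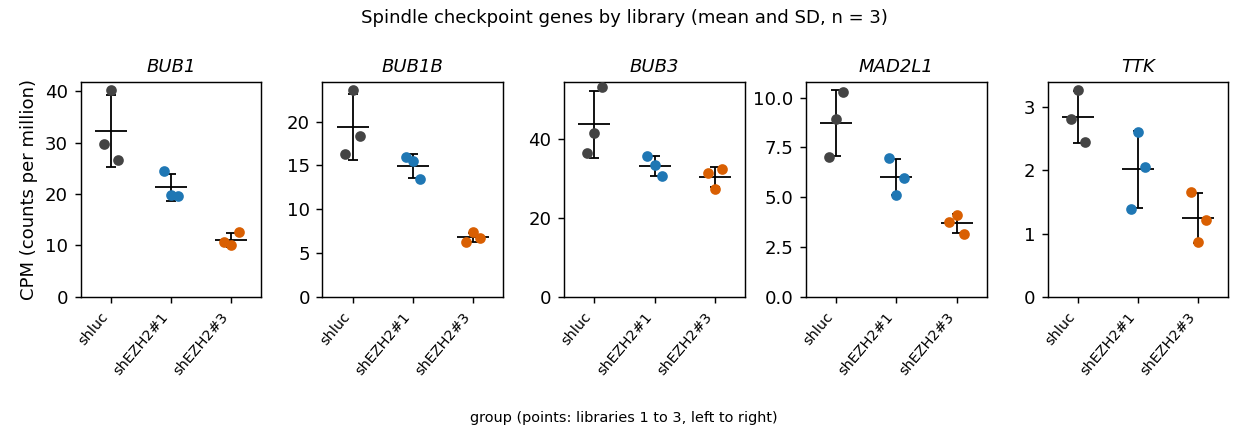
Level of the 5 checkpoint genes in CPM (y axis, from 0) by group, with 1 point per library and the mean and SD (n = 3) as lines. For BUB1 the points step down from 26.7 or more in shluc to 19.7 to 24.4 with shEZH2#1 and 12.6 or less with shEZH2#3.

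In the NDC80 complex, the 4-subunit rod that binds microtubules directly, 3 genes fell with shEZH2#3 and SPC24 did not. SPC25, at the kinetochore end of the rod (ENSG00000152253, chr2:168834132-168913371), stood at 4.38, 5.82 and 5.89 CPM in shluc, 4.6, 5.56 and 4.7 with shEZH2#1 and 1.09, 1.87 and 1.27 with shEZH2#3. The shEZH2#1 libraries lay inside the shluc range, and every shEZH2#3 library lay below both groups. SPC25 had the lowest fold change of the 36 genes with shEZH2#3, -1.93 ± 0.27 (adjusted p = 3.04e-05), which leaves 26.2% of the shluc level, and -0.11 ± 0.24 with shEZH2#1 (adjusted p = 0.776).

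NUF2, at the microtubule end (ENSG00000143228, chr1:163266576-163355764), stood at 2.53, 3.99 and 3.74 CPM in shluc, 2.66, 3.5 and 1.91 with shEZH2#1 and 1.32, 0.686 and 0.994 with shEZH2#3. NDC80, its partner in the microtubule-binding head (ENSG00000080986, chr18:2571511-2616635), stood at 5.99, 7.22 and 5.08 CPM in shluc, 4.29, 4.11 and 3.16 with shEZH2#1 and 2.8, 1.68 and 2.43 with shEZH2#3. For both genes the shEZH2#3 libraries were the 3 lowest, and for NDC80 the shEZH2#1 libraries also lay below all of shluc. With shEZH2#3, NUF2 changed by -1.76 ± 0.34 (adjusted p = 0.000473) and NDC80 by -1.40 ± 0.25 (adjusted p = 0.000301). With shEZH2#1, NUF2 was at -0.34 ± 0.31 (adjusted p = 0.472) and NDC80 at -0.66 ± 0.24 (adjusted p = 0.0634), neither of them called.

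SPC24, which pairs with SPC25 (ENSG00000161888, chr19:11131520-11155808), stood at 34.2, 26.4 and 42.6 CPM in shluc, 41.3, 51.4 and 45.3 with shEZH2#1 and 64, 42 and 37.3 with shEZH2#3. The groups overlapped. Its fitted change of 0.42 ± 0.20 in shEZH2#1 cells was not called (adjusted p = 0.148), nor was that of 0.47 ± 0.20 in shEZH2#3 cells (adjusted p = 0.0591). It passed the threshold as higher with shEZH2#3 once shluc replicate 3 (0.65, adjusted p = 0.0147) or shEZH2#3 replicate 3 (0.62, 0.0241) was left out, and with no filter on low counts (0.43, 0.0384), and with shEZH2#1 without shluc replicate 3 (0.60, 0.039). In the other direction, the shEZH2#3 change was 0.27 with the GC and length correction (adjusted p = 0.326), 0.31 without shluc replicate 2 (0.27), 0.21 without shEZH2#3 replicate 1 (0.39) and 0.04 without both of these libraries (0.853). The corrected SPC24 change with shEZH2#1 was 0.40 (adjusted p = 0.157), and it was 0.25 without shluc replicate 2 (0.501). SPC25 per length came to 21.9, 37.7 and 23.6% of SPC24 in shluc, 19, 18.5 and 17.7% with shEZH2#1 and 2.9, 7.62 and 5.83% with shEZH2#3. The 3 groups did not overlap on this ratio, a pair chosen after its values were seen and therefore given with no test. The ratio uses levels not corrected for GC content, which is 40% for SPC25 and 53.4% for SPC24. The part of GC content in it was not tested.

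**Figure D4:**
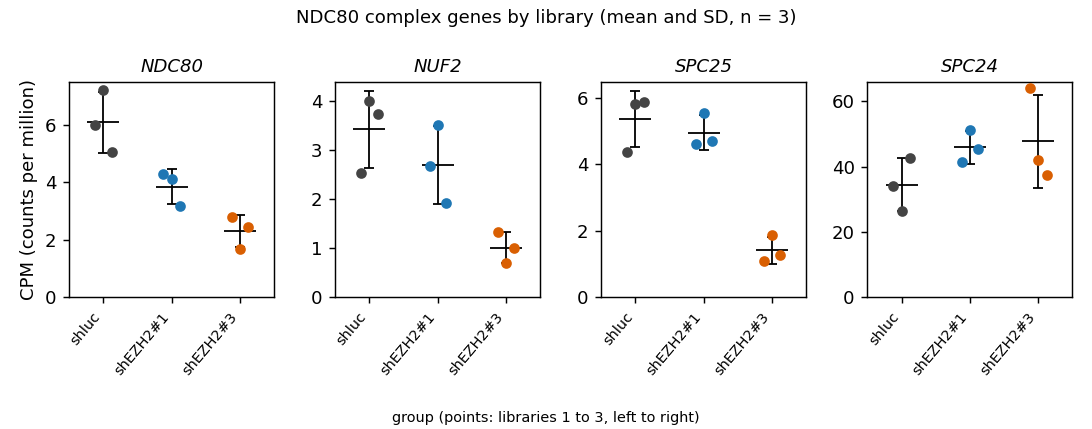
Level of the 4 NDC80 complex genes in CPM (y axes from 0, on different scales) by group, with 1 point per library and the mean and SD (n = 3) as lines. NDC80, NUF2 and SPC25 are lowest in the 3 shEZH2#3 libraries, while the SPC24 points of the 3 groups overlap.

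Of the MIS12 and KNL1 complexes, which link the inner kinetochore to NDC80 and to the checkpoint, 4 of 6 genes fell with shEZH2#3 and 0 of 6 with shEZH2#1. KNL1, the scaffold that docks BUB1 and BUBR1 (ENSG00000137812, chr15:40594020-40664342), stood at 5.44, 8.65 and 5.22 CPM in shluc, 4.54, 6.52 and 3.31 with shEZH2#1 and 2.63, 2.24 and 2.65 with shEZH2#3. MIS12, a subunit of the complex of the same name (ENSG00000167842, chr17:5486285-5490814), stood at 4.33, 5.98 and 6.76 CPM in shluc, 3.81, 5.25 and 3.6 with shEZH2#1 and 2.06, 2.06 and 3.09 with shEZH2#3. In both genes the shEZH2#3 libraries were below the other 6, and shEZH2#1 overlapped shluc. The changes with shEZH2#3 were -1.36 ± 0.27 for KNL1 (adjusted p = 0.000722) and -1.24 ± 0.26 for MIS12 (adjusted p = 0.00108).

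ZWINT, the abundant KNL1 partner that helps to place the RZZ complex (ENSG00000122952, chr10:56357228-56361275), stood at 153, 139 and 167 CPM in shluc, 141, 137 and 124 with shEZH2#1 and 84.8, 93.5 and 106 with shEZH2#3. Its change with shEZH2#3 was -0.69 ± 0.15 (adjusted p = 0.00115), the shEZH2#3 libraries lying below the other 6. DSN1, a subunit of the MIS12 complex (ENSG00000149636, chr20:36751791-36773818), stood at 13.6, 14.7 and 13.8 CPM in shluc, 13.6, 14.3 and 14.8 with shEZH2#1 and 11.4, 9.6 and 9.17 with shEZH2#3. The shluc and shEZH2#1 ranges were nearly the same, and shEZH2#3 was below both. The change was -0.48 ± 0.16 (adjusted p = 0.0202), and the call ended without shEZH2#3 replicate 2 (-0.45, adjusted p = 0.0734) or replicate 3 (-0.42, 0.0832), and with the GC and length correction (-0.16, 0.42).

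PMF1, the most abundant member per length (ENSG00000160783, chr1:156212993-156240042), stood at 142, 98.4 and 160 CPM in shluc, 158, 156 and 144 with shEZH2#1 and 103, 113 and 113 with shEZH2#3. The shEZH2#3 values lay within the shluc range, and shluc replicate 2 was the lowest of the 9 libraries. Against shluc its change with shEZH2#3 was -0.28 ± 0.17 (adjusted p = 0.17), and it was called lower without shluc replicate 2 (-0.47, adjusted p = 0.0103). PMF1 shares 587 exon bases with the readthrough gene PMF1-BGLAP, whose counts came to 12.23% of its own. NSL1, the remaining subunit, was at -0.20 ± 0.24 (adjusted p = 0.509).

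The SKA complex, which keeps kinetochores attached to shortening microtubules, had 2 of 3 genes lower with shEZH2#3 and 0 of 3 with shEZH2#1. SKA3 (ENSG00000165480, chr13:21153595-21176602) stood at 6.08, 6.86 and 6.23 CPM in shluc, 4.05, 5.25 and 4.41 with shEZH2#1 and 3.03, 1.68 and 2.65 with shEZH2#3. SKA1, the microtubule-binding subunit (ENSG00000154839, chr18:50374995-50394173), stood at 3.09, 4.67 and 3.55 CPM in shluc, 3.57, 2.96 and 3.75 with shEZH2#1 and 2.12, 0.998 and 1.71 with shEZH2#3. The 3 groups were apart for SKA3, while for SKA1 shEZH2#1 overlapped shluc and shEZH2#3 was below both. With shEZH2#3 SKA3 changed by -1.37 ± 0.24 (adjusted p = 0.00024) and SKA1 by -1.22 ± 0.30 (adjusted p = 0.00309). SKA2, the most abundant of the 3 per length (ENSG00000182628, chr17:59109951-59155269), stood at 6.26, 7.54 and 7.76 CPM in shluc, 6.71, 7.67 and 4.85 with shEZH2#1 and 9.55, 4.99 and 5.19 with shEZH2#3. Its highest and its next to lowest values are both shEZH2#3 libraries, and the change was -0.13 ± 0.24 (adjusted p = 0.689).

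Of the RZZ complex and corona, 3 of 4 genes fell with shEZH2#3 and 0 of 4 with shEZH2#1. ZW10, an RZZ subunit that brings dynein to kinetochores (ENSG00000086827, chr11:113733187-113773811), stood at 5.53, 7.1 and 5.75 CPM in shluc, 7.5, 5.56 and 4.63 with shEZH2#1 and 2, 2.93 and 2.54 with shEZH2#3. The shEZH2#3 libraries lay well below the other 6, which overlapped. ZW10 changed by -1.30 ± 0.24 with shEZH2#3 (adjusted p = 0.000407), whereas shEZH2#1 left it at -0.05 ± 0.23 (adjusted p = 0.899). Its RZZ partner KNTC1 was called lower with shEZH2#3 at -0.58 ± 0.22 (adjusted p = 0.0427), with overlapping groups. The KNTC1 call ended without any 1 of 5 libraries (shluc replicate 2 or 3, shEZH2#1 replicate 2, shEZH2#3 replicate 1 or 2), with adjusted p between 0.0501 and 0.205, and with DESeq2 (-0.56, adjusted p = 0.0621). With the GC and length correction KNTC1 stood at 0.08 (adjusted p = 0.785).

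CENPF, a large coiled-coil protein of the corona (ENSG00000117724, chr1:214603195-214664588), stood at 19.3, 28.6 and 20.2 CPM in shluc, 15.8, 16.4 and 15.6 with shEZH2#1 and 14.1, 8.04 and 17.5 with shEZH2#3. All 6 EZH2 hairpin libraries were below shluc, and shEZH2#3 spanned the shEZH2#1 values. CENPF fell by 0.78 ± 0.22 on the log2 scale in shEZH2#3 cells (adjusted p = 0.00804), a call that ended without shluc replicate 2 (-0.58, adjusted p = 0.0648) and with the GC and length correction (-0.16, 0.569). Its value in shEZH2#1 cells was -0.51 ± 0.22 (adjusted p = 0.107). CENPE, the kinesin that moves chromosomes to the spindle equator, had 6 to 30 counts in a library. It was not called with shEZH2#3 (-0.70 ± 0.51, adjusted p = 0.261), nor with the GC and length correction (-0.06, 0.941). What size of change could be detected at such counts was not tested.

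The inner kinetochore had the smallest share of genes called lower with shEZH2#3, 3 of 14 or 21.4%, near the 19.8% of all tested genes. Its median log2 fold change was -0.46, and 0 of 14 were called with shEZH2#1. With the GC and length correction 3 of 14 were again lower with shEZH2#3, beside 12.3% of all tested genes. The RZZ complex and corona then had 1 of 4, or 25%, so these roles were no longer far apart. CENPL, which with CENPN reads the CENPA nucleosome region (ENSG00000120334, chr1:173799550-173824720), stood at 7.83, 9.61 and 9.97 CPM in shluc, 9.8, 6.28 and 5.07 with shEZH2#1 and 3.89, 2.99 and 3.87 with shEZH2#3. The shEZH2#3 libraries were below the other 6, and shEZH2#1 overlapped shluc. CENPL changed by -1.35 ± 0.24 with shEZH2#3 (adjusted p = 0.000242). CENPI and CENPH, neighbours in the CENP-HIKM subcomplex, changed by -1.15 ± 0.30 (adjusted p = 0.00488) and -0.81 ± 0.21 (adjusted p = 0.00536), and neither was called after the GC and length correction (-0.60, 0.114, and -0.42, 0.0855).

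CENPA itself, the histone that marks the centromere, stood at 11.2, 12 and 10.7 CPM in shluc, 10.6, 7.07 and 6.25 with shEZH2#1 and 10.7, 5.05 and 7.57 with shEZH2#3. Every EZH2 hairpin library was below the lowest shluc value, replicate 1 of each hairpin only narrowly, and neither change was called (-0.50 ± 0.24, adjusted p = 0.144, and -0.54 ± 0.24, adjusted p = 0.0677). CENPM, the most abundant inner kinetochore gene per length (ENSG00000100162, chr22:41938721-41947164), stood at 42.4, 28.3 and 50.6 CPM in shluc, 57.3, 58.5 and 56.6 with shEZH2#1 and 52.9, 45.4 and 39.5 with shEZH2#3. The shEZH2#1 libraries lay above the other 6, and the change with shEZH2#1 was 0.51 ± 0.18, just short of the threshold (adjusted p = 0.0548). It passed the threshold as higher with DESeq2 (0.54, adjusted p = 0.0379), and on leaving out shluc replicate 3 (0.70, 0.00846) or shEZH2#3 replicate 1 (0.51, 0.032), among others. With the GC and length correction the CENPM change with shEZH2#1 was 0.01 (adjusted p = 0.968). With shEZH2#3 the CENPM change was 0.19 ± 0.18 (adjusted p = 0.412).

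The other 9 inner kinetochore genes were not called with either hairpin. CENPT, an arm that recruits NDC80, was the only one of them above 0 with both hairpins (0.07 and 0.33, adjusted p = 0.797 and 0.094). CENPC, the other arm, was at -1.25 ± 0.53 with shEZH2#3 (adjusted p = 0.0591) on 4 to 30 counts in a library. CENPK, CENPN, CENPO, CENPP, CENPQ, CENPU and CENPW ran from -0.76 (CENPK) to -0.07 (CENPW) with shEZH2#3 and from -0.58 (CENPP) to -0.21 (CENPU) with shEZH2#1. Exons of CENPA overlap SLC35F6 on the same strand, and those of CENPL, CENPN, CENPO, CENPP, CENPT, CENPU and MIS12 overlap other protein-coding genes on the opposite strand, so their counts are uncertain.

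The hairpins differed from each other for 15 of the 36 genes, all lower with shEZH2#3 than with shEZH2#1, which is 41.7% of the set. Of all tested genes, 9.46% were called lower in this contrast and 15.5% higher, and 0 of the 36 were called higher by edgeR, by DESeq2 or at an unadjusted p below 0.05 in either. The largest differences were SPC25 at -1.82 ± 0.27 (adjusted p = 6.95e-05), NUF2 at -1.43 ± 0.35 (adjusted p = 0.00521), ZW10 at -1.25 ± 0.25 (adjusted p = 0.00111) and BUB1B at -1.14 ± 0.18 (adjusted p = 0.000134). CENPL, NDC80, MIS12, DSN1, PMF1, KNL1, ZWINT, SKA1, SKA3, BUB1 and MAD2L1 differed by -1.08 (SKA1) to -0.47 (PMF1). For EZH2 itself the difference between the hairpins was -0.02 ± 0.19 (adjusted p = 0.943). The count of 15 fell to 6 without shEZH2#1 replicate 1, beside 4.69% of tested genes. It fell to 8 without shEZH2#1 replicate 2 (5.73%) and to 7 without shEZH2#3 replicate 2 (5.76%).

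The members were poorer in GC than other genes, with a median of 41.5% against 50.3% over tested genes, and 30 of 36 lay below the latter. After the correction for GC content and length, which could be made for 12949 tested genes, 16 of the 36 genes were lower and 0 higher with shEZH2#3, or 44.4% against 12.3% of all tested genes lower and 12.4% higher. Of the 20 genes called before, 13 were called again; CENPH, CENPI, DSN1, KNTC1, CENPF, BUB3 and TTK were not, and PMF1 (-0.79, adjusted p = 0.000236), CENPM (-0.57, 0.000425) and CENPO (-0.52, 0.00132) were newly called lower. The median of the set moved from -0.73 to -0.48 with shEZH2#3 and from -0.37 to -0.13 with shEZH2#1, beside -0.01 over all genes for both.

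SPC25 (-1.44, adjusted p = 0.00109), NUF2 (-1.23, 0.00598), BUB1B (-1.03, 8.05e-05) and BUB1 (-1.02, 7.34e-05) remained more than 2-fold lower with shEZH2#3 after the correction. The other 9 genes called again stood closer to 0 than before, from -0.90 (CENPL) to -0.39 (ZWINT), with KNL1 and MIS12 at -0.69 and MAD2L1 at -0.61. CENPL, NDC80, NUF2, SPC25, MIS12, KNL1, ZWINT, SKA3, ZW10, BUB1 and BUB1B, 11 of the 20, were called lower with shEZH2#3 in each of the 20 alternatives run. With shEZH2#1 the corrected fit called 1 member lower and 0 higher, against 10.4% and 8.07% of tested genes, but that member was CENPO (-0.34, adjusted p = 0.0217), and BUB1 was no longer called (-0.33, adjusted p = 0.0717). CENPO was then the gene called lower with both hairpins, against 3.35% of tested genes. Between the hairpins, 10 members were lower and 0 higher, which is 27.8% of the set, against 13.3% and 14.9% of tested genes. CENPL, NUF2, SPC25, PMF1, ZWINT, SKA1, ZW10, BUB1 and BUB1B, 9 of the 15 above, were among these 10. CENPM reversed from 0.19 to -0.57 with shEZH2#3, and CENPT from 0.33 to -0.16 (adjusted p = 0.262).

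**Figure D5:**
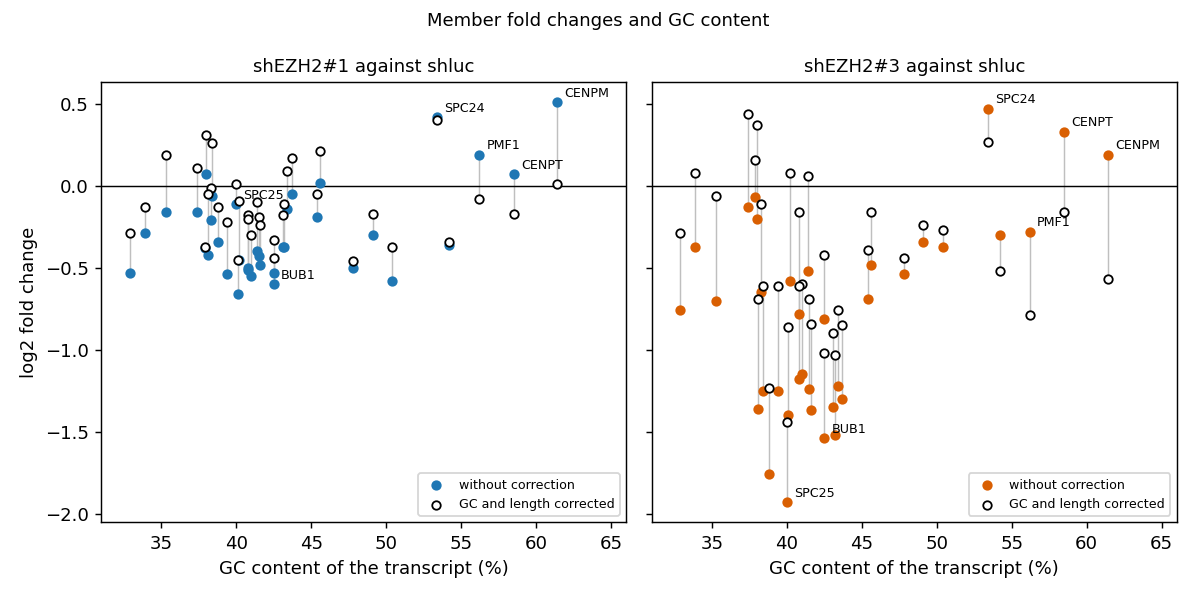
Log2 fold change of each member (y axis) against the GC content of its longest annotated transcript in percent (x axis), for shEZH2#1 (left) and shEZH2#3 (right); filled points are without and open points with the correction for GC content and length, joined by a line for each gene. With shEZH2#3 the GC-rich CENPM, CENPT, PMF1 and SPC24 move down and SPC25 moves up but stays lowest, at -1.44.

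Beyond the 36 members, 37 other genes of the same machinery were listed, and all were tested: 9 were lower and 3 higher with shEZH2#1, and 17 were lower and 3 higher with shEZH2#3. That is 24.3% lower and 8.11% higher with shEZH2#1, beside 7.89% and 11.2% of all tested genes, and 45.9% and 8.11% with shEZH2#3, beside 19.8% and 24.4%. With GC content and length corrected for, the counts were 11 lower and 1 higher with shEZH2#1, beside 10.4% and 8.07% of tested genes. With shEZH2#3 they were then 20 lower and 0 higher, beside 12.3% and 12.4%. Of the 4 genes that load CENPA, 3 fell with shEZH2#3, among them the chaperone HJURP (-1.47 ± 0.18, adjusted p = 1.05e-05), and OIP5, a MIS18 complex subunit, fell in shEZH2#1 cells (-0.78 ± 0.22, adjusted p = 0.0168) as well as in shEZH2#3 cells (-0.94 ± 0.22, adjusted p = 0.00213). The OIP5 call with shEZH2#1 ended without shEZH2#1 replicate 2 (-0.68, adjusted p = 0.091) or replicate 3 (-0.80, 0.0591). With the correction HJURP was at -1.33 with shEZH2#3 (adjusted p = 3.30e-05), and OIP5 was called with both hairpins (-0.73, 0.0353, and -0.78, 0.0213). Of 4 other centromere proteins, 1 was called in the uncorrected fit, CENPB, which binds alpha-satellite DNA. CENPB rose by 0.65 ± 0.16 in shEZH2#1 cells (adjusted p = 0.00814) and by 0.62 ± 0.16 in shEZH2#3 cells (adjusted p = 0.00472). Corrected for GC content and length, CENPB stood at 0.20 (adjusted p = 0.131) and -0.02 (0.892). In that fit CENPX, of the same list, was called lower with shEZH2#3 (-0.64, adjusted p = 0.0113), from 0.13 (0.583) before.

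Beside the list counts that follow, 7.89% of all tested genes were lower and 11.2% higher with shEZH2#1, and 19.8% and 24.4% with shEZH2#3. With the GC and length correction these shares were 10.4% and 8.07%, and 12.3% and 12.4%. Of 7 checkpoint partners, 5 fell with shEZH2#3 and 1 with shEZH2#1, and 1 rose with each hairpin (MAD1L1, the MAD2 receptor, at 0.54 and 0.64, and not called after the GC and length correction at 0.18 and 0.05). CDC20, the activator that the checkpoint holds back, changed by -0.46 ± 0.15 with shEZH2#3 (adjusted p = 0.0196), and PLK1, a mitotic kinase, by -0.44 ± 0.16 (adjusted p = 0.0292). Each of these calls ended when 1 of several libraries was left out: for CDC20 shluc replicate 1, shEZH2#3 replicate 1 or 3 (adjusted p = 0.0523 to 0.0868), and for PLK1 shluc replicate 1 or 3, shEZH2#3 replicate 1 or 3 (0.0512 to 0.115). With the GC and length correction both were again lower with shEZH2#3, CDC20 at -0.96 (adjusted p = 9.46e-06) and PLK1 at -0.89 (3.30e-05), and both were called with shEZH2#1 (-0.40, 0.00554, and -0.51, 0.00207). The list then had 3 genes lower with shEZH2#1 and 5 with shEZH2#3. In the chromosomal passenger complex and cohesion protection list, 4 of 7 fell with shEZH2#1 and 3 of 7 with shEZH2#3. BIRC5, the survivin subunit, fell with both (-0.66 ± 0.14, adjusted p = 0.00393, and -0.50 ± 0.14, adjusted p = 0.00942), and INCENP, the scaffold, fell with shEZH2#1 (-0.67 ± 0.15, adjusted p = 0.00373) with -0.34 ± 0.15 for shEZH2#3 (adjusted p = 0.063). After the correction 5 of the 7 were lower with each hairpin, INCENP at -0.92 (adjusted p = 0.000158) and -0.86 (0.000166) and BIRC5 at -0.61 (0.00053) and -0.60 (0.000369). Of 15 genes of the anaphase-promoting complex and its activator FZR1, 6 were lower and 1 higher with shEZH2#3, and 3 lower and 1 higher with shEZH2#1. After the correction they numbered 7 lower and 0 higher, and 2 lower and 1 higher. ANAPC5 fell with shEZH2#3 (-0.61 ± 0.17, adjusted p = 0.0067) and ANAPC2 rose (0.69 ± 0.17, adjusted p = 0.00347), the latter at 0.08 after the correction (adjusted p = 0.612).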

How the data were processed

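Polyadenylated RNA of 9 irradiated KYSE180 libraries was sequenced with a strand-marking kit, per the labels' protocols. The submitters' processing notes name fastp, HISAT2, StringTie and GRCh38 (hg38), without versions; for the counting step, annotation release and strand setting, nothing is given in the sources used here. What the authors deposited were estimated counts per Ensembl gene, not normalized, with totals of 14958011 to 21152006; 14.65 to 18.55% of nonzero values carried decimals, and the 9 single files equalled the series table.

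These expected counts were rounded and tested with edgeR 4.0.16 (R 4.3.3): TMM scaling, filterByExpr on the 3 groups (13252 genes kept), a quasi-likelihood fit over all 9 libraries with a mean per group, and Benjamini-Hochberg adjustment over all genes tested, called below 0.05. Errors of fold changes are approximate standard errors, from the fold change and the square root of the F statistic; CPM values are scaled by TMM. GC content, length, positions and overlaps came from the longest GENCODE 29 transcript, protein-coding where there was one; 97.7% of tested genes had them. The correction used a smooth of span 0.3 per library, as an offset. Promoters came from RefSeq (GRCh38.p14).

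The members, the lists and the alternatives were chosen with earlier results of these data known. Every library value is given for members called with both hairpins or between hairpins and for the most abundant member of each role per length; of other genes, up to 2 called per list with the highest mean level. By the rule for promoters (called with both hairpins and holding CHR letters) none qualified, so 4 were chosen afterwards, as were CENPA's library values. Alternatives were DESeq2 1.42.0, scaling by RLE or by the upper quartile, no or a stricter filter (1 CPM in 6 libraries), fits of only the compared groups, the replicate number as a block, the GC and length correction with and without it, abundant unnamed and mitochondrial genes left out, and libraries left out. Counts of few reads limit the rare members; no unirradiated cells were analysed here. A further exon overlap of a member with another gene is not reported here.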

Additional observations from a re-analysis of the deposited data

Results flagged for a closer look

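For 15 members the effect of the hairpins differed, by the direct edgeR quasi-likelihood test of shEZH2#3 against shEZH2#1 with adjustment over all genes, and each was lower with shEZH2#3. The log2 differences were -1.82 for SPC25, -1.43 for NUF2, -1.25 for ZW10, -1.14 for BUB1B, -1.08 for SKA1, -0.98 for CENPL, -0.94 for KNL1 and for BUB1, -0.89 for SKA3, -0.81 for MIS12, -0.74 for NDC80, -0.71 for MAD2L1, -0.50 for DSN1 and for ZWINT, and -0.47 for PMF1. EZH2 stood at 10.1 and 9.94 CPM in the same libraries. Among the related genes named, HJURP differed by -1.06, FZR1 by -0.87 and ANAPC15 by 0.63. No group had enough libraries for a test of single outlying values.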

How the results depend on the processing

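The 3 libraries per group and the low counts of rare members limit what could be called. The count of 20 members lower with shEZH2#3 (beside 19.8% of tested genes) stayed within 1.5 times in every alternative run. It was 27 with upper quartile scaling, 19 with DESeq2 and 16 with the GC and length correction (beside 12.3% of tested genes). With that correction and the replicate block it was 14. It was 21 without shluc replicate 2 and shEZH2#3 replicate 1 together, and 17 to 21 with 1 library left out. For the other alternatives of this count the share over all genes is not given here. The count of 1 lower with shEZH2#1 was 2 with no filter (beside 5.72% of tested genes) and 3 with only the 2 groups compared (8.33%). It was 0 without those 2 libraries together (7.22%) and 0 to 3 with 1 left out, the 3 without shluc replicate 3 (9.98%). Members lower with both hairpins numbered 2 with no filter (beside 2.54% of tested genes) and 3 with only the 2 groups compared (3.43%). They numbered 0 without both libraries (1.79%) and 0 to 2 with 1 left out. The 2 came without shluc replicate 3 (4.79%) or shEZH2#3 replicate 1 (3.21%). Members higher with shEZH2#1 numbered 1 with upper quartile scaling, DESeq2, no filter, the stricter filter, only the 2 groups, the replicate block, and without abundant unnamed and mitochondrial genes. In these settings the share over all tested genes ran from 6.68% (no filter) to 12.9% (stricter filter). They numbered 0 to 2 with 1 left out, the 2 without shluc replicate 3, beside 12.7%. Members higher with shEZH2#3 numbered 1 with no filter (beside 13.9%) and 0 to 1 with 1 left out. The 1 came without shluc replicate 3 (23.8%) or shEZH2#3 replicate 3 (21.6%). Members lower in shEZH2#3 than in shEZH2#1 numbered 6 to 15 with 1 left out, the 6 beside 4.69% of tested genes. With upper quartile scaling the median member change with shEZH2#3 was -0.90, beside -0.18 over all genes. The latter was -0.01 in the main fit, so all genes shifted lower where 27 members were called. The cause of these changes was not tested.

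The replicate numbers did not pair the libraries: deviations of libraries with the same number correlated at -0.122 to 0.0821. With the replicate block the counts were 20 lower with shEZH2#3, 1 lower with shEZH2#1 and 12 lower between hairpins. The shares of all tested genes called lower in that fit are not given here, so these counts cannot be set against them. The median member change was -0.13 with shEZH2#1, with the GC and length correction and with that correction and the block, and -0.48 and -0.50 with shEZH2#3.

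With the GC and length correction, and in the second value also with the block, signs turned for these genes, most of them not called. With shEZH2#1 they were CENPC (0.26, 0.20), CENPT (-0.17 in both), SPC25 (0.01 in both), PMF1 (-0.08 in both), SKA1 (0.09, 0.08), SKA2 (0.11, 0.10), ZW10 (0.17 in both), CENPE (0.19, 0.14) and ANAPC2 (-0.03, -0.04). With shEZH2#3 they were CENPM (-0.57 in both), CENPQ (0.08, 0.09), CENPT (-0.16, -0.15), CENPW (0.16, 0.19), NSL1 (0.37, 0.36), SKA2 (0.44, 0.42), KNTC1 (0.08, 0.07), BUB3 (0.06, 0.08) and CENPB (-0.02 in both). Without shluc replicate 2 and shEZH2#3 replicate 1 together, CENPM was at -0.13 with shEZH2#3, and CENPT at -0.09, SKA1 at 0.04 and ZW10 at 0.07 with shEZH2#1. DSN1 was at -0.02 with shEZH2#1 with no filter.

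With 1 library left out, signs turned for genes that were not called. With shEZH2#1 the ranges were -0.46 to 0.37 for CENPC, -0.56 to 0.03 for CENPQ, -0.1 to 0.16 for CENPT, -0.01 to 0.04 for DSN1, -0.15 to 0.18 for NSL1, -0.27 to 0.03 for SKA1, -0.31 to 0.0 for SKA2, -0.29 to 0.09 for ZW10 and -0.64 to 0.06 for CENPE. With shEZH2#3 they were -0.03 to 0.37 for CENPM, -0.36 to 0.27 for CENPW, -0.5 to 0.03 for SKA2 and -0.27 to 0.06 for ANAPC15.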

Other observations

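A pair of anaphase-promoting complex genes, named after their values were seen, differed between the hairpins in opposite directions. In that list 3 of 15 genes were lower and 1 higher with shEZH2#3 than with shEZH2#1, beside 9.46% and 15.5% of all tested genes. CDC23 (-0.72) and CDC27 (-0.62) were also called lower, CDC27 not after the GC and length correction (-0.33). FZR1, which encodes the CDH1 activator of late mitosis and G1, stood at 25.7, 19.7 and 25.4 CPM in shluc, 40.3, 33.7 and 43.7 with shEZH2#1 and 20, 23.4 and 20.9 with shEZH2#3. It rose with shEZH2#1 (0.73 ± 0.16, adjusted p = 0.00389 by edgeR's quasi-likelihood test), with -0.14 ± 0.16 for shEZH2#3 (adjusted p = 0.489), and the hairpins differed (adjusted p = 0.000596). After the GC and length correction FZR1 was called higher with shEZH2#1 (0.39, adjusted p = 0.0257) and lower with shEZH2#3 (-0.71, adjusted p = 0.000557). ANAPC15, a subunit that helps to release CDC20 from the checkpoint complex, stood at 59.6, 44.5 and 71.2 CPM in shluc, 32, 36.7 and 36.8 with shEZH2#1 and 66.8, 45.5 and 51.1 with shEZH2#3. It fell with shEZH2#1 (-0.73 ± 0.18, adjusted p = 0.00814), all 3 libraries lying below the other 6, with -0.10 ± 0.18 for shEZH2#3 (adjusted p = 0.666). The ANAPC15 difference between hairpins (0.63, adjusted p = 0.015) was not called without shEZH2#1 replicate 1 (0.56, 0.0805) or shEZH2#3 replicate 1 (0.46, 0.0671). With upper quartile scaling it was not called either (0.48, 0.0563), and with the GC and length correction it was (0.64, 0.00362). Without shluc replicate 2 and shEZH2#3 replicate 1 together, ANAPC15 was called lower with shEZH2#3 against shluc (-0.44, 0.0265).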
